A study of Drosophila melanogaster with 7 samples.

Results

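The genes described here are serine proteases taken by name as digestive enzymes of the adult Drosophila midgut. They are every Jonah gene (Jon followed by a map position) and every trypsin gene (a name ending in Try, with Try29F). The Ser genes that carry a number and yip7 complete the set. The rule found 32 of the 10902 genes in the count table, namely 16 Jonah genes, 12 trypsins and 4 others (Ser6, Ser7, Ser8 and yip7). The rule reads names, not levels, changes or function, so a digestive role is not established here for each gene. All 32 were measured well enough to be tested among 9076 genes. RNA was sequenced from dissected midguts of 3 kinds of fly. The first, Shn-RNAi puc (2 libraries), carried the esgts driver, Shn-RNAi and 1 mutant copy of puckered (PucE69/+). The second, Shn-RNAi (2 libraries), carried the same driver and Shn-RNAi. The control (3 libraries) was the driver crossed to w1118 and so had no RNAi construct. All flies were raised at 18 °C, moved to 29 °C as adults, and dissected 7 days later without crop, Malpighian tubules or hindgut. The series title calls the 3 groups severe tumor, tumor and control.

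The esgts driver is a temperature-sensitive Gal4 system under control of escargot, which is active in intestinal stem cells and their immediate daughters. Its target here was schnurri (shn), a zinc finger transcription factor of the BMP (Dpp) pathway, and puckered (puc) encodes the phosphatase that restrains JNK. Digestive serine proteases are made by another cell type, the enterocytes that line the gut. They are secreted as inactive precursors, become active once a short leading peptide is cut off, and cleave dietary protein inside chains. Trypsins cut after lysine or arginine, and the Jonah proteases are a family of related serine endopeptidases expressed in larval and adult midgut. In flies their expression is known to vary with diet and with the region of the gut.

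Library totals ran from 11552527 to 18490676 counts, and 10048 to 10601 genes had at least 1 count in a library. Levels are CPM (counts scaled by library size) after TMM scaling, which equalises libraries over the bulk of their genes. The shn transcript stood at 66.5 and 69.7 CPM in Shn-RNAi puc libraries, 68.6 and 54.1 CPM in Shn-RNAi libraries and 42.5, 47.4 and 42.4 CPM in control libraries. It was higher in Shn-RNAi puc libraries (log2 change 0.63, edgeR adjusted p = 0.0314) and was not called in Shn-RNAi libraries (0.48, adjusted p = 0.0906). The puc transcript, from the gene whose allele separates the 2 RNAi groups, stood at 86.5 and 88.3 CPM in Shn-RNAi puc libraries, 93.5 and 101 CPM in Shn-RNAi libraries and 72.3, 70.2 and 82.2 CPM in control libraries, and was not called between the RNAi groups (-0.16, adjusted p = 0.916). The whole-midgut levels of shn and puc thus gave no check of the labels, and groups are named by their labels throughout. All 10 enterocyte markers with a row in the table had counts in every library, and their changes are given with those of other cell types. Nothing in the labels says that replicates were separate pools of flies, and p-values then measure only the spread between libraries, which may be technical. The control strain w1118 and the absence of RNAi cannot be told apart.

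The protease genes lie mostly in tight tandem groups. With a largest gap of 20 kb, 26 of the 32 genes fell into 6 clusters and 6 lay alone (positions on BDGP6, from the Ensembl annotation). The largest cluster, on 2R from 11336840 to 11357537, held 11 trypsins within 20.7 kb, together with 3 other coding genes. Jon25Biii, Jon25Bii and Jon25Bi occupied 2L from 4949941 to 4955144. yip7 and the 4 Jon65A genes occupied 3L from 6035216 to 6054443, and Jon66Ci with Jon66Cii 3L from 8391540 to 8393649. The Jon99C genes lay on 3R from 29922216 to 29926189, and the Jon99F pair on 3R from 30487016 to 30489895. Try29F (2L), Jon44E and Ser8 (2R), Jon74E (3L), and Ser6 and Ser7 (X) stood alone. They are short genes: the longest transcript ran from 810 to 1413 bases with a median of 903.5, against a median of 2026 bases over tested genes, and had a single exon in 25 of the 32. Jon44E, deltaTry and Ser8 overlap a gene on the opposite strand and Try29F a gene on its own strand, and whether counting used strand is not stated.

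These 32 genes took up a large part of the midgut's messenger RNA. They held 17.0% and 16.4% of all counts in Shn-RNAi puc libraries, 18.3% and 22.9% in Shn-RNAi libraries, and 28.2%, 25.4% and 28.7% in control libraries. Every RNAi library lay below every control library, and by share of counts the 2 Shn-RNAi puc libraries lay below the 2 Shn-RNAi libraries. On the TMM scale the RNAi groups overlapped, with summed levels of 162313 and 133490 CPM in Shn-RNAi puc libraries and 160838 and 246563 CPM in Shn-RNAi libraries, against 259441 to 334922 CPM in control libraries. The mean summed level was 147902 ± 20381 CPM in Shn-RNAi puc (SD, n = 2), 203700 ± 60617 CPM in Shn-RNAi (n = 2) and 305049 ± 40126 CPM in control libraries (n = 3). Jonah genes alone summed to 76929 ± 14159, 114529 ± 29496 and 183402 ± 24195 CPM in the same order of groups. Trypsins summed to 55493 ± 4979.6 CPM in Shn-RNAi puc, 66556 ± 23806 CPM in Shn-RNAi and 93621 ± 12431 CPM in control libraries. Among the 50 most abundant genes of a library, 10 and 11 were of this set in Shn-RNAi puc, 11 and 11 in Shn-RNAi, and 16 in each control library. In bulk midgut, fewer cells of a type and less RNA per cell cannot be told apart.

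**Figure D1:**
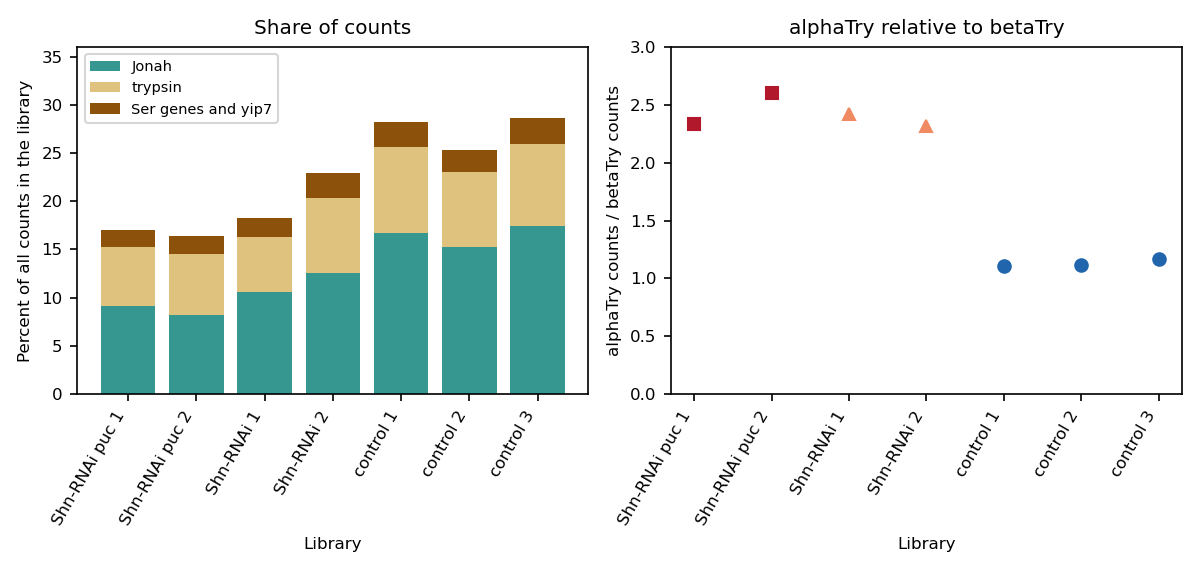
Left, percent of all counts in each library held by the Jonah genes, the trypsins, and the Ser genes with yip7, stacked from 0. The total is 16.4% to 17.0% in the 2 Shn-RNAi puc libraries, 18.3% and 22.9% in the Shn-RNAi libraries and 25.4% to 28.7% in the 3 control libraries. Right, counts of alphaTry divided by counts of betaTry in each library, between 2.31 and 2.60 in the 4 RNAi libraries and between 1.11 and 1.17 in the control libraries.

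A few genes supplied most of this RNA. Per kilobase of transcript, the scale on which genes can be set beside each other, Jon65Aiv stood at 30859.8 ± 2274 CPM per kb in Shn-RNAi puc, 45088 ± 16219 in Shn-RNAi and 69256 ± 8866 in control libraries (SD, n = 2, 2 and 3). Its neighbour Jon65Aiii stood at 27337 ± 909, 39226 ± 14592 and 48558 ± 5649 CPM per kb in the same groups. The trypsin alphaTry stood at 38715 ± 2616, 44708 ± 15366 and 47944 ± 6303 CPM per kb. It ranked above every other gene of the set in Shn-RNAi puc libraries, whereas Jon65Aiv ranked first in the other groups. Averaged over all 7 libraries, the next places were taken by yip7, betaTry, Jon99Cii, Jon25Biii and epsilonTry. The order differed between groups: betaTry stood above yip7 in control libraries, and Jon74E above epsilonTry in both RNAi groups. At the low end, gammaTry, Jon66Cii, Try29F and Ser7 averaged under 50 CPM per kb in control libraries. Together the 5 most abundant genes held 73.7% and 80.9% of the set's counts in Shn-RNAi puc libraries, 70.9% and 77.1% in Shn-RNAi libraries and 69.5%, 69.6% and 67.8% in control libraries.

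**Figure D2:**
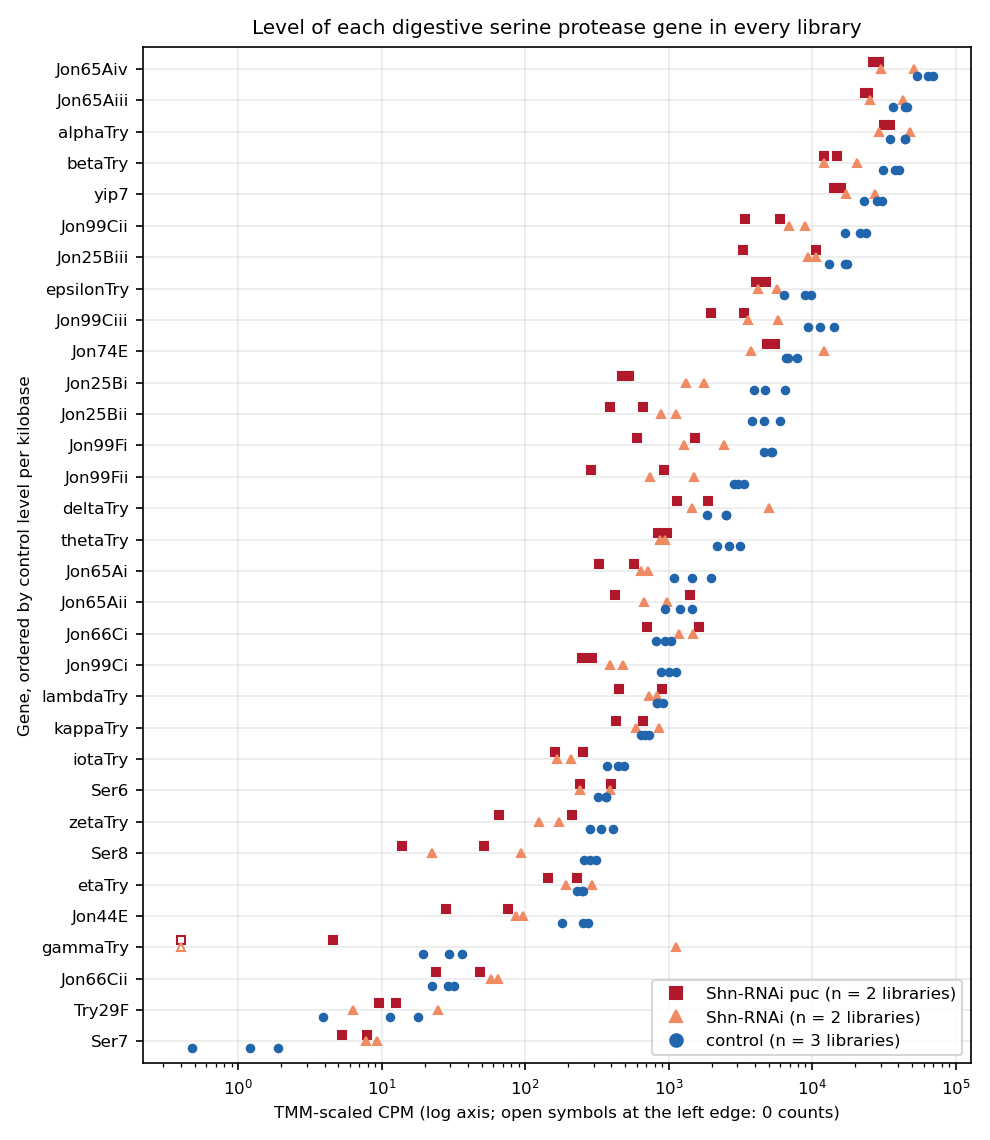
Level of each of the 32 genes in every library as TMM-scaled CPM on a log axis, ordered by control level per kilobase, with Shn-RNAi puc (squares), Shn-RNAi (triangles) and control (circles) libraries drawn as separate points. For 23 genes both Shn-RNAi puc points lie left of all control points, whereas Ser7 has control points at 1.22, 1.88 and 0.478 CPM to the left of RNAi points at 5.26 and 7.91 CPM in Shn-RNAi puc and 7.73 and 9.32 CPM in Shn-RNAi libraries. Open symbols at the left edge are gammaTry at 0 counts.

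In midguts of Shn-RNAi puc flies, 14 of the 32 genes were lower than in control midguts and 1 was higher, at an adjusted p under 0.05 by edgeR's quasi-likelihood test. DESeq2 called 19 lower (8.88% of all genes it tested). By edgeR that is 43.8% of the set lower, against 6.25% of all 9076 genes tested, and 3.12% higher, against 8.76% of all genes. The median log2 change was -1.11 over the set and 0.02 over all genes tested. Both Shn-RNAi puc libraries lay below all 3 control libraries for 23 of the 32 genes, a pattern that 26.4% of all genes showed. The count of 14 rests on single libraries: without the second Shn-RNAi puc library, 3 genes (Jon25Bi, Jon25Bii and Jon99Ci) were called lower, and without control library 1 or 3 there were 8 and 9. Jon44E, Jon65Ai, Jon99Cii, Jon99Ciii and thetaTry lost their call only without the second Shn-RNAi puc library, with adjusted p from 0.0544 to 0.134. Jon99Fi, Jon99Fii, Ser8, betaTry, iotaTry and Jon65Aiv also lost it without control library 1, and their highest adjusted p over the refits ran from 0.104 to 0.197. Within the group, 27 of 32 genes were higher in the first library than in the second, with a median ratio of 1.65 between the higher and the lower library (gammaTry left out).

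Among the Jonah genes, 10 of 16 were lower and none was higher (median -1.82). None was higher at an unadjusted p under 0.05 (16.9% of all genes were), by DESeq2 (9.42%) or by limma-voom (8.52%). The largest called fall was in Jon25Bi, at 473 and 532 CPM in Shn-RNAi puc libraries, 1762 and 1329.6 CPM in Shn-RNAi libraries and 4736, 3953 and 6503 CPM in control libraries. Its neighbour Jon25Bii was at 658 and 392 CPM in Shn-RNAi puc libraries, 1122 and 883 CPM in Shn-RNAi libraries and 4615, 3835 and 5989.6 CPM in control libraries. For both genes the 3 groups formed 3 separate ranges, with Shn-RNAi puc lowest and control highest. The log2 change against control was -3.33 (SE 0.30, adjusted p = 0.00097) for Jon25Bi, about 10.1-fold lower, and -3.20 (SE 0.34, adjusted p = 0.00189) for Jon25Bii. The third gene of that cluster, Jon25Biii, was more abundant and uneven, at 10625 and 3279 CPM in Shn-RNAi puc libraries against 17044, 13035 and 17436 CPM in control libraries. It was not called (-1.19, adjusted p = 0.121).

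All 5 genes at map position 99 were lower in Shn-RNAi puc midguts. Jon99Ci stood at 293 and 250.4 CPM in Shn-RNAi puc libraries, 483 and 389 CPM in Shn-RNAi libraries and 1125, 892 and 1005 CPM in control libraries. Its change (-1.89, SE 0.21, adjusted p = 0.00201) kept its call in all 7 refits that left out 1 library. Jon99Cii, the most abundant of the 5, stood at 6018 and 3412 CPM in Shn-RNAi puc libraries, 8945 and 6923 CPM in Shn-RNAi libraries and 21685, 17101 and 23918 CPM in control libraries, with a log2 change of -2.15 (SE 0.33, adjusted p = 0.00699). Jon99Ciii stood at 3347 and 1986 CPM in Shn-RNAi puc libraries, 5777 and 3556 CPM in Shn-RNAi libraries and 11285, 9371 and 14151 CPM in control libraries (-2.12, SE 0.36, adjusted p = 0.00912). In each of these 3 genes every Shn-RNAi puc library lay below every Shn-RNAi library, and these below every control library.

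The Jon99F pair showed the same direction with a wider spread between libraries. Jon99Fi stood at 1524 and 600.4 CPM in Shn-RNAi puc libraries, 2415 and 1281 CPM in Shn-RNAi libraries and 5149.8, 4642 and 5255 CPM in control libraries. Jon99Fii stood at 934 and 288 CPM in Shn-RNAi puc libraries, 1496 and 747 CPM in Shn-RNAi libraries and 3054, 2871 and 3363 CPM in control libraries. The first Shn-RNAi puc library was 2.54 and 3.24 times the second in these genes, and the 2 RNAi groups overlapped. Against control the log2 changes were -2.24 (SE 0.45, adjusted p = 0.0167) and -2.34 (SE 0.52, adjusted p = 0.0237). Jon99Cii and Jon99Ciii, and likewise Jon99Fi and Jon99Fii, are close copies of each other whose reads may have been divided between copies, so each pair was also tested as a sum. The summed Jon99Cii and Jon99Ciii pair changed by -2.14 in Shn-RNAi puc (adjusted p = 0.00806) and by -1.37 in Shn-RNAi (adjusted p = 0.0417). The summed Jon99F pair changed by -2.28 (adjusted p = 0.0194) in Shn-RNAi puc and by -1.45 (adjusted p = 0.0860) in Shn-RNAi.

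Jon44E stood at 75.9 and 28.3 CPM in Shn-RNAi puc libraries, 87 and 96.6 CPM in Shn-RNAi libraries and 252, 180.1 and 275 CPM in control libraries, with no overlap between any groups (Shn-RNAi puc against control -2.18, SE 0.41, adjusted p = 0.0136). In the Jon65A cluster, Jon65Ai stood at 571 and 325 CPM in Shn-RNAi puc libraries, 637 and 719 CPM in Shn-RNAi libraries and 1464, 1098 and 1976 CPM in control libraries (-1.76, SE 0.33, adjusted p = 0.0145). The abundant Jon65Aiv stood at 29351 and 26444 CPM in Shn-RNAi puc libraries, 30391 and 51127 CPM in Shn-RNAi libraries and 63953, 54005 and 69864 CPM in control libraries. It was lower by a smaller amount (-1.17, SE 0.31, adjusted p = 0.0408) and kept this call in 3 of 7 refits that left out 1 library. Jon65Aiii, the next most abundant Jonah gene, was at 24483 and 23358 CPM in Shn-RNAi puc and 46178, 36873 and 44416 CPM in control libraries and missed the threshold (-0.83, adjusted p = 0.101). Jon65Aii overlapped control, at 1403 and 425 CPM in Shn-RNAi puc against 1195, 947 and 1452 CPM in control libraries.

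The remaining Jonah genes were not called in Shn-RNAi puc midguts. Jon66Ci stood at 1637 and 713 CPM in Shn-RNAi puc libraries, 1185 and 1485 CPM in Shn-RNAi libraries and 944, 1044 and 818 CPM in control libraries, and Jon66Cii, a far less abundant neighbour, at 48.5 and 24.1 CPM in Shn-RNAi puc libraries, 57.8 and 64.2 CPM in Shn-RNAi libraries and 28.9, 31.8 and 22.5 CPM in control libraries. Shn-RNAi puc libraries overlapped control libraries in both genes, and neither was called in that comparison. Jon74E stood at 5498 and 4861 CPM in Shn-RNAi puc against 7813, 6570.1 and 6793 CPM in control libraries. Its 2 Shn-RNAi libraries, at 3740.0 and 12042 CPM, fell on either side of the control values.

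**Figure D3:**
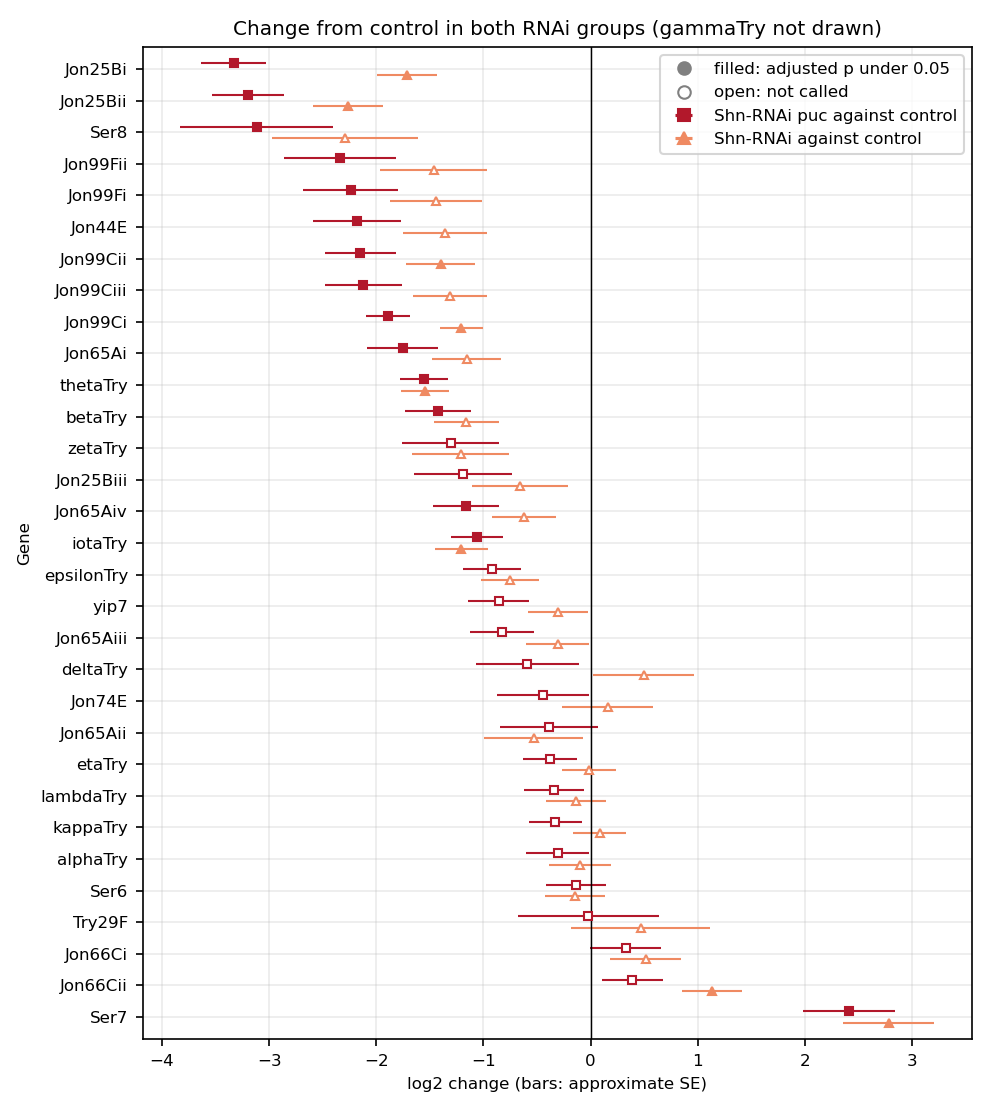
Log2 change from control of 31 genes in Shn-RNAi puc (squares) and Shn-RNAi (triangles) midguts, ordered by the Shn-RNAi puc change, with bars of 1 approximate SE. Filled symbols passed an adjusted p of 0.05. Jon25Bi and Jon25Bii lie farthest to the left (-3.33 and -3.20 in Shn-RNAi puc) and Ser7 farthest to the right (2.41 in Shn-RNAi puc, 2.78 in Shn-RNAi). gammaTry is not drawn because of its 0 counts.

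Of the 12 trypsins, 3 were lower in Shn-RNAi puc midguts by edgeR (6.25% of all genes were) and 5 by DESeq2 (8.88%). limma-voom also called 3 lower, and 5 were lower at an unadjusted p under 0.05. The shares of all genes lower by these last 2 rules are not given here. By each of these 4 rules 0 trypsins were higher. Of all genes, 8.76% were higher by edgeR, 9.42% by DESeq2, 8.52% by limma-voom and 16.9% at an unadjusted p. The median was -0.75. betaTry, the second most abundant trypsin, stood at 14956 and 12191 CPM in Shn-RNAi puc libraries, 12021 and 20659 CPM in Shn-RNAi libraries and 40062, 31467 and 37906 CPM in control libraries (-1.43, SE 0.31, adjusted p = 0.022). thetaTry stood at 968 and 841 CPM in Shn-RNAi puc libraries, 943 and 878 CPM in Shn-RNAi libraries and 2655, 2186 and 3136 CPM in control libraries (-1.56, SE 0.22, adjusted p = 0.00534). iotaTry stood at 255 and 161 CPM in Shn-RNAi puc libraries, 209 and 167 CPM in Shn-RNAi libraries and 441, 374 and 486 CPM in control libraries (-1.06, SE 0.25, adjusted p = 0.0273). In all 3 genes the 4 RNAi libraries lay below the 3 control libraries, and the 2 RNAi groups overlapped each other. betaTry and iotaTry each kept the call in 3 of 7 refits that left out 1 library.

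The other trypsins of the tandem array were not called. epsilonTry, at 4771 and 4070.5 CPM in Shn-RNAi puc libraries, 4181 and 5728 CPM in Shn-RNAi libraries and 8859, 6352 and 9843 CPM in control libraries, came close (-0.92, adjusted p = 0.059). zetaTry was at 212 and 65.8 CPM in Shn-RNAi puc against 336, 283 and 412 CPM in control libraries (-1.31, adjusted p = 0.0912). With 1 library left out at a time, epsilonTry passed in 3 of 7 refits and zetaTry in 1. etaTry was at 229.8 and 145 CPM in Shn-RNAi puc libraries, 191 and 290.4 CPM in Shn-RNAi libraries and 249, 230.5 and 251 CPM in control libraries. kappaTry was at 667 and 430.0 CPM in Shn-RNAi puc libraries, 597 and 864 CPM in Shn-RNAi libraries and 732, 686 and 647 CPM in control libraries. lambdaTry was at 902 and 454 CPM in Shn-RNAi puc libraries, 831 and 735 CPM in Shn-RNAi libraries and 914, 834 and 828 CPM in control libraries. In kappaTry and lambdaTry the libraries of the 3 groups overlapped, and in etaTry the Shn-RNAi libraries fell on either side of control. Outside the array, Try29F was scarce, at 9.55 and 12.6 CPM in Shn-RNAi puc libraries, 6.33 and 24.9 CPM in Shn-RNAi libraries and 11.5, 17.9 and 3.9 CPM in control libraries, with a 4.59-fold range among control libraries.

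alphaTry, the most abundant trypsin, was not called in either comparison. It stood at 34886 and 31704 CPM in Shn-RNAi puc libraries, 29104 and 47793 CPM in Shn-RNAi libraries and 44484, 34975 and 44238 CPM in control libraries (-0.31 in Shn-RNAi puc, adjusted p = 0.533, and -0.10 in Shn-RNAi, adjusted p = 0.863). As a share of trypsin counts, alphaTry held 59.1% and 61.0% in Shn-RNAi puc, 58.5% and 57.3% in Shn-RNAi, and 43.9%, 44.1% and 44.1% in control libraries. betaTry held 25.3% and 23.5%, 24.2% and 24.8%, and 39.6%, 39.7% and 37.8% of trypsin counts in the same groups. The ratio of alphaTry to betaTry counts, which needs no scaling between libraries, was 2.33 and 2.60 in Shn-RNAi puc, 2.42 and 2.31 in Shn-RNAi, and 1.11, 1.11 and 1.17 in control libraries. All 4 RNAi libraries were above all 3 control libraries, and the 2 RNAi groups overlapped. This ratio was chosen after its values were seen and was not tested. How reads fitting both genes were divided is not stated.

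The makeup of the Jonah RNA also differed between libraries. Jon25Bi and Jon25Bii together were 1.30% and 1.38% of Jonah counts in Shn-RNAi puc, 3.08% and 1.63% in Shn-RNAi, and 4.91%, 4.98% and 6.15% in control libraries. The 5 genes at position 99 were 13.9% and 9.77%, 20.4% and 9.53%, and 22.2%, 22.3% and 23.5% in those groups. Jon65Aiii and Jon65Aiv made up 61.9% and 74.4% of Jonah counts in Shn-RNAi puc, 59.4% and 69.8% in Shn-RNAi, and 57.8%, 58.1% and 56.2% in control libraries. For each of these 3 shares the RNAi libraries lay on one side of the control libraries. The 3 groups of genes were picked with the changes in these same libraries known, and Jon25Biii was left out of the first. Shares of 1 total also depend on each other. The shares describe the changes given above and were not tested.

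gammaTry could not be read as a gene of its own. It had 4.61 and 0 CPM in Shn-RNAi puc, 0 and 1127 CPM in Shn-RNAi and 19.4, 36.1 and 29.5 CPM in control libraries, so 2 of the 4 RNAi libraries held no count and 1 held the highest value. gammaTry, deltaTry, CG30025 and CG30031 are near-identical neighbours in the array, among which the counting could move reads. deltaTry stood at 1151 and 1897 CPM in Shn-RNAi puc libraries, 1467 and 4998 CPM in Shn-RNAi libraries and 2526, 1839 and 2514 CPM in control libraries, and was not called in any comparison. Summed over the 4 copies, the level was 3308 and 5396 CPM in Shn-RNAi puc, 4096 and 13622 CPM in Shn-RNAi, and 4579, 3159 and 4677 CPM in control libraries. The second Shn-RNAi library stood apart, and the sum was not called against control in Shn-RNAi puc (0.07, adjusted p = 0.942) or Shn-RNAi (1.10, adjusted p = 0.183).

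Ser8 and Ser7 moved in opposite directions. Ser8 stood at 14 and 51.6 CPM in Shn-RNAi puc libraries, 22.6 and 93.3 CPM in Shn-RNAi libraries and 312, 256 and 283 CPM in control libraries. All 4 RNAi libraries lay below the control libraries, but the libraries of each RNAi group differed by 3.69-fold (Shn-RNAi puc) and 4.13-fold (Shn-RNAi). Ser8 was called in Shn-RNAi puc (-3.12, SE 0.71, adjusted p = 0.0259) and not in Shn-RNAi (-2.30, SE 0.68, adjusted p = 0.0726). Ser7 was the least abundant gene of the set and had its longest transcript (1413 bases, in 3 exons). Its name alone placed it in the set, and a digestive role was not tested. Ser7 stood at 5.26 and 7.91 CPM in Shn-RNAi puc libraries, 7.73 and 9.32 CPM in Shn-RNAi libraries and 1.22, 1.88 and 0.478 CPM in control libraries. It was higher in Shn-RNAi puc (2.41, SE 0.43, adjusted p = 0.0113) and in Shn-RNAi (2.78, SE 0.43, adjusted p = 0.00823), with no overlap with control. The first of these calls was lost without either Shn-RNAi puc library (highest adjusted p = 0.139) and the second without Shn-RNAi library 2 (0.0527). yip7, a serine protease first found as a binding partner of the Yippee protein, was at 15940.2 and 14303 CPM in Shn-RNAi puc libraries, 17171 and 27293 CPM in Shn-RNAi libraries and 28295, 23137 and 30741 CPM in control libraries and missed the threshold in both (-0.86, adjusted p = 0.0814, and -0.30, adjusted p = 0.547). Ser6 overlapped between groups, at 399.6 and 240.0 CPM in Shn-RNAi puc libraries, 241 and 392 CPM in Shn-RNAi libraries and 366, 322 and 365 CPM in control libraries.

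Fewer genes passed the test in Shn-RNAi midguts. Against the same control libraries, 6 of 32 were lower (18.8%, against 3.56% of all genes tested) and 2 were higher (6.25%, against 6.06%). The median log2 change was -0.64 over the set, and 0.03 over all genes tested. Both Shn-RNAi libraries lay below every control library for 17 of the 32 genes (21.2% of all genes) and above for 3 (22.1% of all genes). DESeq2 called 15 of the 32 lower, against 6.34% of all genes it tested. Leaving out control library 1 or Shn-RNAi library 2 left 3 genes called lower. The count higher was 1 without any 1 of the control libraries and 0 without Shn-RNAi library 2. Within the group 20 genes were higher in the second library and 12 in the first.

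The 6 lower genes were Jon25Bii (-2.26, SE 0.32, adjusted p = 0.00638), Jon25Bi (-1.71, SE 0.28, adjusted p = 0.0104), thetaTry (-1.55, SE 0.22, adjusted p = 0.00672), Jon99Cii (-1.40, SE 0.32, adjusted p = 0.0343), Jon99Ci (-1.21, SE 0.20, adjusted p = 0.0111) and iotaTry (-1.21, SE 0.25, adjusted p = 0.0238). Each of them was also lower in Shn-RNAi puc midguts, a comparison that uses the same control libraries. Of these 6, Jon25Bii and thetaTry kept the call in all 7 refits that left out 1 library. Jon25Bi lost it without Shn-RNAi library 2 (adjusted p = 0.0548), and Jon99Ci, Jon99Cii and iotaTry also without control library 1, with highest adjusted p of 0.0633, 0.126 and 0.0943. Jon66Cii was the second gene that was higher, besides Ser7 (1.13, SE 0.28, adjusted p = 0.0434), and lost its call without any 1 control or Shn-RNAi library (highest adjusted p = 0.122). The other 8 genes lower in Shn-RNAi puc had negative log2 changes in Shn-RNAi as well, from -2.30 (Ser8) to -0.62 (Jon65Aiv), and did not pass there. By class, 4 of 16 Jonah genes were lower and 1 higher (median -1.18), and 2 of 12 trypsins were lower (median -0.12).

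**Figure D4:**
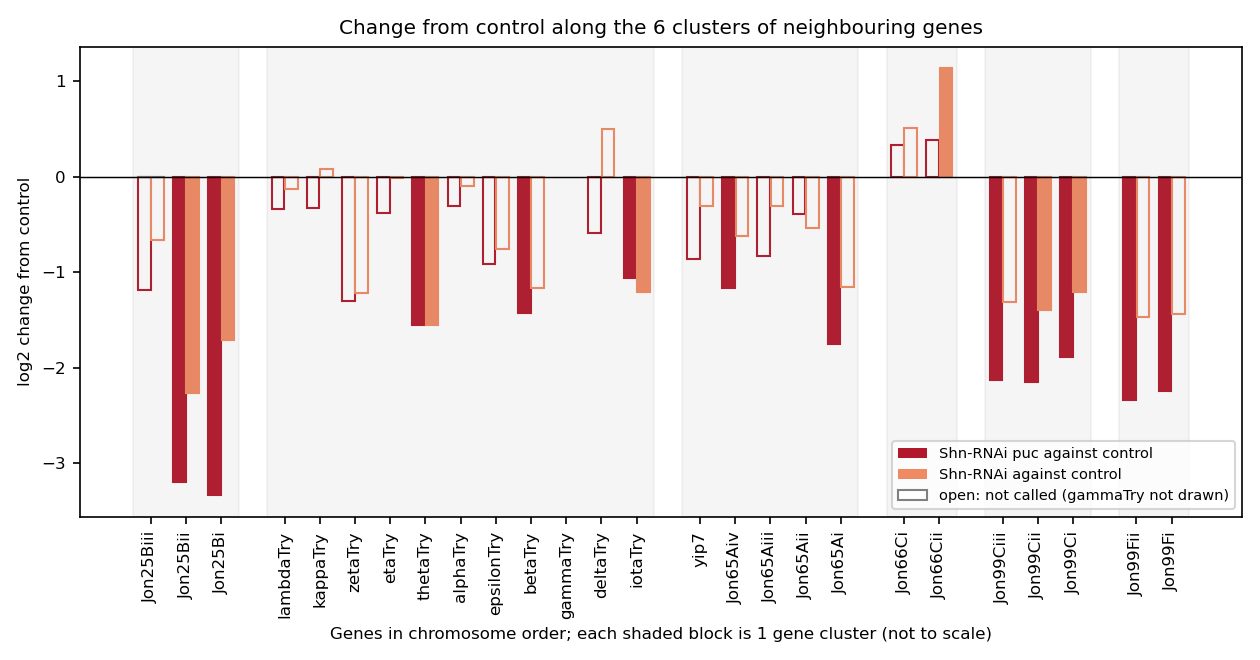
Log2 change from control of the 26 clustered genes, in chromosome order within each of 6 shaded clusters, with Shn-RNAi puc (dark) and Shn-RNAi (light) bars from 0 and filled bars for an adjusted p under 0.05. All 5 genes of the 2 clusters at position 99 have filled Shn-RNAi puc bars, against 3 of 11 in the trypsin array, and the Jon66C pair lies above 0. gammaTry is not drawn.

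The clusters can be set beside each other by their medians. In Shn-RNAi puc midguts the median log2 change was -3.20 in the Jon25B cluster (2 of 3 genes lower), -2.29 in the Jon99F pair (2 of 2) and -2.12 in the Jon99C cluster (3 of 3). It was -0.92 in the trypsin array (3 of 11), -0.86 in the yip7 and Jon65A cluster (2 of 5) and 0.36 in the Jon66C pair (0 of 2). In Shn-RNAi midguts the same medians were -1.71 (Jon25B), -1.45 (Jon99F), -1.31 (Jon99C), -0.13 (trypsin array), -0.53 (yip7 and Jon65A) and 0.82 (Jon66C). Calls were not shared by all neighbours: Jon25Biii was not called beside Jon25Bi and Jon25Bii, and alphaTry was not called between thetaTry and betaTry.

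Set directly against Shn-RNAi midguts, Shn-RNAi puc midguts had no called gene in the set by edgeR, where 0.143% of all genes were called. At an unadjusted p under 0.05, 5 were lower and 0 higher (2.95% and 3.43% of all genes). The 5 include gammaTry, which could not be read as a gene of its own. limma-voom also called 0 (0.198% of all genes). DESeq2 called 1 lower (0.584% of all genes it tested), namely Jon25Bi (-1.62 by edgeR, SE 0.29, edgeR adjusted p = 0.143). The Jon25Bi values were 473 and 532 CPM in Shn-RNAi puc and 1762 and 1329.6 CPM in Shn-RNAi libraries. The next were Jon99Ci (-0.68, adjusted p = 0.534) and Jon25Bii (-0.93, adjusted p = 0.636). For 11 of the 32 genes both Shn-RNAi puc libraries lay below both Shn-RNAi libraries (11.9% of all genes), and the median log2 difference was -0.54, against -0.01 over all genes. With 2 libraries on each side, a call made against control in one RNAi group and missed in the other does not show that the groups differ.

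The gut makes other proteases, which were counted as separate lists. Of 36 tested serine proteases of the same S1 family outside the set, 9 were lower and 3 higher in Shn-RNAi puc midguts (median -0.15, against 0.02 over all genes). In Shn-RNAi midguts none was lower (3.56% of all genes were) and 4 were higher (median 0.08). The higher genes are 11.1% of the list, against 6.06% of all genes. At an unadjusted p under 0.05, 9 were lower and 9 higher there. DESeq2 called 5 lower and 7 higher, and limma-voom 2 lower and 3 higher. CG10663 stood at 8.51 and 10.3 CPM in Shn-RNAi puc libraries, 3.7 and 4.26 CPM in Shn-RNAi libraries and 0.86, 0.664 and 0.956 CPM in control libraries (3.51, adjusted p = 0.000464, and 2.27, adjusted p = 0.00256). CG31269 stood at 9.74 and 4.17 CPM in Shn-RNAi puc libraries, 32.8 and 21.1 CPM in Shn-RNAi libraries and 58.7, 55.9 and 68.5 CPM in control libraries (-3.13, adjusted p = 0.00282). CG10477 was higher in both, at 1132 and 692 CPM in Shn-RNAi puc libraries, 947 and 1121 CPM in Shn-RNAi libraries and 467, 444 and 318 CPM in control libraries. CG30025, one of the copies shared with gammaTry, was among the 4 in Shn-RNAi midguts (4.75, adjusted p = 0.0190). It stood at 121 and 1399 CPM in Shn-RNAi libraries and 46.7, 13.5 and 24.4 CPM in control libraries. The sum over the 4 copies was not called (1.10, adjusted p = 0.183), and how reads were divided among them was not tested. CG8299 was the fourth (1.27, adjusted p = 0.0464).

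Metallocarboxypeptidases trim amino acids from the ends that endopeptidases leave. Of 12 tested, 4 were lower and 1 higher in Shn-RNAi puc midguts (median -0.82), and 2 were lower in Shn-RNAi midguts (median -0.65). In Shn-RNAi puc that is 33.3% lower and 8.33% higher, against 6.25% and 8.76% of all genes. In Shn-RNAi it is 16.7% lower, against 3.56% of all genes. DESeq2 called 7 lower in Shn-RNAi puc and 6 in Shn-RNAi, and 0 higher in either. Of all genes it tested, 8.88% and 6.34% were lower. With limma-voom 5 were lower and 1 higher in Shn-RNAi puc, and 3 were lower and 0 higher in Shn-RNAi. CG32379 stood at 2.27 and 2.47 CPM in Shn-RNAi puc libraries, 1.34 and 0.954 CPM in Shn-RNAi libraries and 25.6, 27.7 and 30.8 CPM in control libraries (-3.56 and -4.58, adjusted p = 0.000241 and 0.000143), with no overlap. CG8560 stood at 711 and 362 CPM in Shn-RNAi puc libraries, 562 and 807 CPM in Shn-RNAi libraries and 2055, 1807 and 2649.9 CPM in control libraries and was lower in both (-2.02, adjusted p = 0.0104, and -1.66, adjusted p = 0.0245). CG14820 and CG8562 were lower in Shn-RNAi puc (-1.73 and -1.86), and CG8539 was higher (0.71). Of 11 M1 aminopeptidases, CG46339 was higher in both RNAi groups (1.47 in Shn-RNAi puc and 1.36 in Shn-RNAi) and CG32473 was lower in Shn-RNAi puc (-2.06). For these, DESeq2 called 4 lower and 1 higher in Shn-RNAi puc, and 2 lower and 1 higher in Shn-RNAi. With limma-voom 1 was lower and 1 higher in Shn-RNAi puc, and 0 lower and 1 higher in Shn-RNAi. The list summed to 6977 to 12373 CPM in Shn-RNAi puc, 8774 to 13424.5 CPM in Shn-RNAi and 14584 to 16008 CPM in control libraries. Of 9 astacins and neprilysins, Nep3 was higher in Shn-RNAi puc (0.81) and CG15254 in Shn-RNAi (2.86). A single gene is 9.09% of the first list and 11.1% of the second. Of all genes, 8.76% were higher in Shn-RNAi puc and 6.06% in Shn-RNAi, and 6.25% were lower in Shn-RNAi puc. None of 5 aspartic and cysteine proteases was called by edgeR in either RNAi group, where 1 was lower at an unadjusted p under 0.05 and by DESeq2 and 0 by limma-voom. The gene at the unadjusted p was Bace, the most abundant of the list. Bace stood at 21027 and 18305 CPM in Shn-RNAi puc libraries and 14546 and 22054.5 CPM in Shn-RNAi libraries. In control libraries it stood at 34041, 26847 and 36308 CPM, with no overlap. Serpins, a family of serine protease inhibitors, had 2 of 14 higher in Shn-RNAi puc (Spn43Ab, 0.53, and Spn27A, 0.75) and 1 in Shn-RNAi (Spn53F, 1.52), or 14.3% and 7.14% of the list against 8.76% and 6.06% of all genes. DESeq2 called 1 higher and 1 lower in Shn-RNAi puc and 1 higher in Shn-RNAi, and limma-voom called 2 higher and 0.

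Of 22 tested regulators of gut and nutrient gene expression, exex and nub were higher in both RNAi groups, which is 9.09% of the list in each, against 8.76% of all genes in Shn-RNAi puc and 6.06% in Shn-RNAi. The homeodomain gene exex stood at 123 and 154 CPM in Shn-RNAi puc libraries, 97.5 and 95 CPM in Shn-RNAi libraries and 52.9, 59.5 and 66.1 CPM in control libraries. Mondo, a sugar-responsive transcription factor, was lower in Shn-RNAi puc (-0.63, adjusted p = 0.0415). GATAe, a GATA factor known to maintain midgut gene expression, was at 121 and 118 CPM in Shn-RNAi puc libraries, 116 and 95.4 CPM in Shn-RNAi libraries and 106, 107 and 108 CPM in control libraries and was not called.

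Cell type markers moved beside the proteases, and their part in the result was not tested. Of 10 enterocyte markers, none was lower by edgeR and nub was higher in each RNAi group. At an unadjusted p under 0.05, 2 were lower in Shn-RNAi puc and 3 in Shn-RNAi, DESeq2 called 2 and 1 lower, and limma-voom 0. Their summed level was 3393 to 5610 CPM in Shn-RNAi puc, 3597 to 4894 CPM in Shn-RNAi and 6322 to 7137 CPM in control libraries. Npc2e, mag, LManV and LManVI had log2 changes of -1.43 to -1.07 in Shn-RNAi puc and -1.71 to -0.56 in Shn-RNAi, and the other 6 had changes of 0.14 to 0.79 and -0.05 to 0.93. The median of the 10 was 0.18 in Shn-RNAi puc and -0.04 in Shn-RNAi. The 8 progenitor markers summed to 184 to 226 CPM in Shn-RNAi puc and 223 to 249.8 CPM in Shn-RNAi libraries. In control libraries they summed to 129 to 166 CPM. By edgeR 0 were called in Shn-RNAi puc. In Shn-RNAi 2 of the 8, peb and hdc, were higher, against 6.06% of all genes. DESeq2 called 3 higher in Shn-RNAi puc and 4 in Shn-RNAi, and limma-voom 0 and 3. At an unadjusted p under 0.05, 3 were higher and 1 lower in Shn-RNAi puc, and 4 higher and 0 lower in Shn-RNAi. Visceral muscle genes were lower for 8 of 9 in Shn-RNAi puc (88.9%, against 6.25% of all genes) and for 4 of 9 in Shn-RNAi (44.4%, against 3.56%). Their sums were 1798 to 2158 CPM, 2319 to 2401 CPM and, in control libraries, 3604 to 3817 CPM. Enteroendocrine markers summed to 409 to 469 CPM in Shn-RNAi puc, 319 to 457 CPM in Shn-RNAi and 328 to 373 CPM in control libraries. CCHa1 was higher in both RNAi groups, and NPF was lower in Shn-RNAi puc. A single gene is 11.1% of that list. Of all genes, 8.76% were higher in Shn-RNAi puc and 6.06% in Shn-RNAi, and 6.25% were lower in Shn-RNAi puc. Of 4 markers of the acid-secreting copper cells, 0 were called against control by edgeR, DESeq2 or limma-voom, or at an unadjusted p under 0.05 (348 to 362 CPM, 256 to 325 CPM and 306 to 380.5 CPM in the 3 groups). Between the RNAi groups 1 of them, Ptx1, was higher in Shn-RNAi puc at an unadjusted p under 0.05 (0.58). Fat body and hemocyte markers summed to at most 10.8 CPM in any library, with Lsp1gamma higher in Shn-RNAi and Hml in Shn-RNAi puc. NimC1 and eater had no count in Shn-RNAi libraries. The Malpighian tubule list (up to 72.6 CPM) had NtR higher in Shn-RNAi puc, and the crop and salivary list its 1 gene Drip lower in both. Of 4 tracheal markers, 0 were called by edgeR (1 lower in Shn-RNAi at an unadjusted p and by DESeq2), at 9.03 to 12.2 CPM, 8.29 to 9.25 CPM and, in control libraries, 8.09 to 38.6 CPM.

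The level of long genes relative to short ones differed between libraries, and the proteases are short genes. The median log2 level of the longest 25% of genes minus that of the shortest 25%, taken on each gene's deviation from its mean over libraries, was 0.08 and 0.30 in Shn-RNAi puc, 0.55 and -0.24 in Shn-RNAi, and -0.29, 0.00 and -0.37 in control libraries. With that trend taken out of every library, 13 of the 32 genes were lower in Shn-RNAi puc and 5 in Shn-RNAi midguts. The summed level became 161107 CPM in Shn-RNAi puc, 206710 CPM in Shn-RNAi and 279829 CPM in control libraries.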

How the data were processed

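The deposited table held raw counts per gene, as whole numbers, for 7 midgut libraries. Per the labels' protocols, RNA was extracted from frozen dissected midguts and libraries were made with the Illumina TruSeq kit. The sequencer was a GAIIx, per the series' design text. Salmon 1.0.0, the build BDGP6 and DESeq2 are listed in the submitters' processing notes without their roles. How the counts became whole numbers is not stated. Columns are named by group and a number, with no sample, and are called libraries.

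The deposited counts were tested in R 4.3.3 with edgeR 4.0.16: filterByExpr by group (9076 of 10902 genes kept, 1826 removed, the kept genes holding at least 99.8% of each library's counts), TMM scaling, and 1 quasi-likelihood fit of all 7 libraries in 3 groups with 4 residual degrees of freedom. The biological coefficient of variation was 21.6%. Two-sided p-values were adjusted over all 9076 genes (Benjamini-Hochberg), and an adjusted p with no tool named is from this fit. An SE is the log2 change without its sign, divided by the square root of F. The script was tested on simulated data. Positions and lengths are from Ensembl 115 (BDGP6.54), which matched 99.7% of symbols, 825 by an older name, and all 32 members.

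The members and the gene lists were chosen with earlier results of these data known. Values in every library are given for called members, up to the 12 with the smallest p in a contrast, the 8 with the highest level per kilobase, and those over 4-fold apart within an RNAi group. Of each other list up to 4 called genes with the smallest p are named, or all where 5 or fewer were called. Other genes named were chosen after their values were seen. Alternatives were DESeq2 1.42.0, limma-voom (limma 3.58.1), RLE and upper-quartile scaling, TMM without the members, no low-count filter, leaving out the 50 most abundant genes, 1 CPM in 2 libraries, only the groups compared, the length trend taken out (loess, span 0.5), each library left out in turn and, added after the data were seen, close copies summed and the column number as a block.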

Additional observations from a re-analysis of the deposited data

How the results depend on the processing

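The count of genes lower in Shn-RNAi puc midguts was 14, and 13 to 19 under DESeq2, limma-voom, the 2 other scalings, TMM without the members, both filters, the fit of only the groups compared and the length correction. It was 7 with the 50 most abundant genes left out, where 18 of the 32 genes could be tested, and 3 to 18 with 1 library left out. The count higher was 0 to 1 with 1 library left out. For Shn-RNAi midguts the count lower, 6, became 15 by DESeq2, 10 when only the groups compared were fitted, 3 with the 50 most abundant genes left out, and 3 to 7 with 1 library left out. The count higher, 2, became 1 with no low-count filter and 0 to 2 with 1 library left out. Between the RNAi groups, DESeq2 called 1 lower and the other settings 0. The cause was not tested, except that fewer members could be tested with abundant genes left out and fewer libraries entered the last fits.

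Directions turned only where a gene was not called in the comparison concerned, and the genes named are examples. With 1 library left out, Jon65Aii in Shn-RNAi puc ran from -1.50 to 0.23. Between the RNAi groups, such ranges included betaTry (-0.61 to 0.17), Jon25Biii (-1.61 to 0.09) and Ser8 (-2.05 to 0.53). In Shn-RNAi, alphaTry became 0.043 with the length trend taken out and ran from -0.50 to 0.21 with 1 library left out. Jon74E became -0.050 by limma-voom, with a range of -0.91 to 0.77. gammaTry became -2.96 by limma-voom, with a range of -11.76 to 5.31, and of -16.05 to 8.18 between the RNAi groups. The same ranges were -0.64 to 1.13 for deltaTry and -0.74 to 0.030 for Jon65Aiii in Shn-RNAi, and -0.39 to 0.81 for Jon66Ci and -0.21 to 0.81 for Jon66Cii in Shn-RNAi puc. deltaTry in Shn-RNAi puc became 0.073 with its copies summed. The summed level of the set was not computed with the 50 most abundant genes left out, since 14 members are among them. The column names number the libraries within each group, and nothing says that a shared number marks a shared batch. Deviations from the group means correlated at -0.17 to 0.23 in libraries of the same number and at -0.28 to 0.28 in those of different numbers. In a group of 2 libraries the deviations mirror each other, so these values can neither show nor exclude pairing. With this number as a replicate block, chosen after the data were seen and with 2 residual degrees of freedom, 11 genes were lower and 1 higher in Shn-RNAi puc, 5 lower and 1 higher in Shn-RNAi, and 0 were called between the RNAi groups.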

Other observations

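A second tandem group of serine proteases, outside the named set and picked out after its values were seen, lay on 3R from 17126088 to 17138865. Its 9 listed S1-family genes span 12.8 kb. In Shn-RNAi puc midguts 7 of them were lower than in control midguts (CG17477, CG31269, CG31265, CG17475, CG4053, CG31266 and CG31267), which are next to each other, and these make up 7 of the 9 lower genes of that list. Of all genes, 6.25% were lower in that comparison. CG4053 stood at 17.6 and 9.54 CPM in Shn-RNAi puc libraries, 43.8 and 36.2 CPM in Shn-RNAi libraries and 70.7, 66.4 and 107 CPM in control libraries (-2.58, SE 0.33, edgeR adjusted p = 0.00358). CG31265 stood at 40.7 and 17.9 CPM in Shn-RNAi puc libraries, 80.5 and 91.3 CPM in Shn-RNAi libraries and 129, 138 and 181 CPM in control libraries (-2.35, SE 0.35, edgeR adjusted p = 0.00603). In both genes the 3 groups formed separate ranges, with Shn-RNAi puc lowest and control highest. CG5246, at the end of the run, stood at 572 and 255 CPM in Shn-RNAi puc libraries, 566 and 357 CPM in Shn-RNAi libraries and 228, 201 and 412 CPM in control libraries and was not called (0.56, edgeR adjusted p = 0.421). Over the 9 genes the median log2 change was -2.39 in Shn-RNAi puc and -1.02 in Shn-RNAi against the same control libraries, and -1.34 between Shn-RNAi puc and Shn-RNAi. By edgeR 0 of the 9 were called in the last comparison or in Shn-RNAi against control. In Shn-RNAi against control the unadjusted edgeR p of the 7 genes ran from 0.0057 (CG17477) to 0.0574 (CG31266). It was 0.124 for CG5246 and 0.689 for CG5255.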
